A study of Irpex lacteus with 14 samples.

Results

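Transcript levels of the white-rot fungus Irpex lacteus grown on pine, a softwood, were compared with those on maltose, a sugar made of joined glucose units, over 967 genes. All genes were compared that reached 10 normalized read counts in at least 2 of the 5 substrates of the series, which left out 10 of the 977 different genes in the table. Strain CCBAS Fr. 238 617/93 was grown for 3 days at 30 °C in shaken flasks of 100 ml. The pine medium held 15 g per litre of sieved pine wood fragments under 2 mm and 2.5 g per litre of maltose, and the maltose medium contained 20 g per litre of this sugar and no solid. All media shared diammonium tartrate, mineral salts, yeast extract and thiamin, so that both groups had the same nitrogen source and both were given some maltose. Polyadenylated RNA of whole mycelium was sequenced in 2 pine and 3 maltose libraries, of 14 libraries in all. The other 9 came from cultures on aspen, wheat straw and cellulose (Avicel), 3 on each. These media also held 15 g per litre of solid, with a stated fragment size of 1 mm for aspen and 2 mm for straw. Their stated maltose level was 2.5 g per litre for straw and cellulose and was not legible for aspen. Whether the libraries of a substrate came from separate cultures is not stated. Wood and the lower maltose supply came together in the pine medium, so that their effects cannot be told apart in this comparison. Since RNA came from whole mycelium, fewer hyphae using a gene and less of its RNA per hypha cannot be told apart either.

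White-rot fungi degrade all the polymers of wood, lignin included. They secrete hydrolases against cellulose and hemicelluloses, and oxidative enzymes, among them peroxidases and copper-dependent oxidases, that attack lignin and crystalline cellulose. Softwoods such as pine differ from hardwoods and grasses in the units of their lignin, in a hemicellulose rich in mannose, and in resinous extractives. In many filamentous fungi, an ample supply of an easily used sugar lowers the transcription of genes for enzymes that break down plant cell walls. The table gives genes by number only, without names or functions, so none of these enzyme groups could be looked up in it.

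Each gene had 1 deposited value per substrate, a normalized read count on the log2 scale, that stood for all libraries of that substrate. There was no spread between libraries to set beside it, and a difference has no replicate check, no interval and no p-value. Depth per library is unknown. In the following, "higher" and "lower" mean a gap of 1 log2 unit or more between the pine and maltose values, a 2-fold difference, and this states a size and not a test. The counts are not divided by gene length, so an order of genes within a substrate is an order by reads and not by transcript number.

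More genes were higher on pine than lower. On the deposited scale, 311 genes (32.2%) were higher on pine than on maltose and 91 (9.41%) were lower, while 565 (58.4%) differed by less than 2-fold. At 4-fold, 134 genes (13.9%) were higher and 20 (2.07%) lower. At 8-fold the counts were 64 higher and 7 lower, at 16-fold 34 and 3, and at 64-fold 6 and 0. Of all 967 genes, 623 lay above their maltose value and 344 below it. By what criterion genes entered the table is unknown. The counts, shares, medians and sums given here and below thus describe this set only. They need not hold for other genes of the fungus.

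The differences were skewed toward pine. As deposited, the median gene was 0.43 higher on pine than on maltose (log2 difference). This median depended on the scaling. It was -0.17 with quantile normalization and -0.24 with both columns centred on their median gene. The middle 50% of the deposited differences ran from -0.28 to 1.31, and the 5th and 95th percentiles lay at -1.48 and 3.29. Counted from the median gene, these percentiles were 1.91 below and 2.86 above it. The most densely filled stretch of 1 log2 unit ran from -0.24 to 0.76 and held 335 genes. Many genes stood close to the 2-fold limit: 50 had differences between 0.9 and 1.1 and 19 between -1.1 and -0.9, so the counts at 2-fold would move with small errors in either column.

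**Figure D1:**
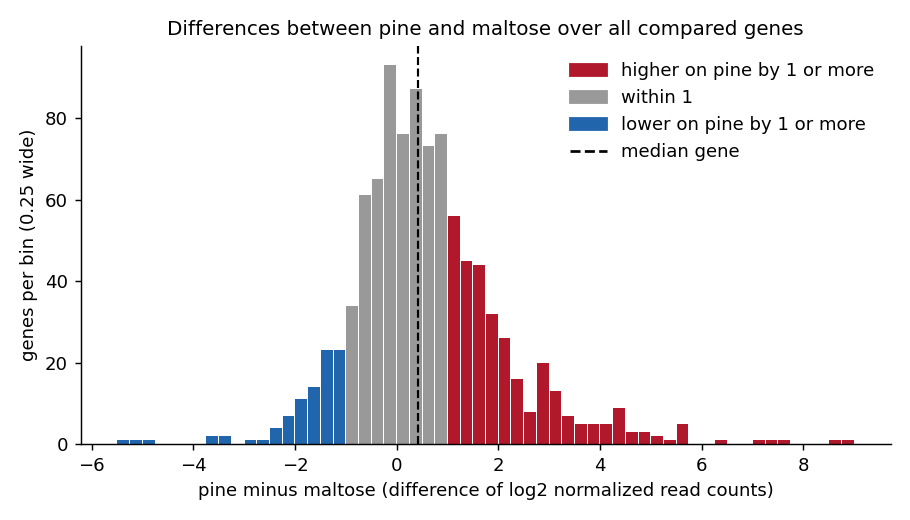
Histogram of the pine minus maltose difference (x axis, log2) of 967 genes, in bins of 0.25 (y axis, genes per bin). Red bars hold the 311 genes higher on pine by at least 1, blue bars the 91 lower ones, and the dashed line is the median gene at 0.43; the right tail is the longer one, reaching 8.75 against -5.31 on the left.

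The balance at 2-fold depended on the scaling of the columns, and that at 4-fold kept its direction. With quantile normalization 174 genes were higher on pine and 202 lower, and with both columns centred on their median gene 176 and 229. With the median difference of 0.43 subtracted from every pine value, 220 were higher and 166 lower. At 4-fold the higher genes outnumbered the lower ones in each case, with 83 against 55, 89 against 63, and 99 against 43. Centring and subtraction assume that the middle of the table does not change. Quantile normalization assumes more, namely that all columns have the same distribution of values, tails included. The values cannot show whether either assumption holds.

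The difference grew with the read level of the genes. Genes were divided into quartiles by their mean over the 5 substrates. The median difference between pine and maltose was 0.09 in the quartile with the fewest reads, 0.29 and 0.54 in the next ones, and 0.86 in the quartile with the most reads. In the quartile with the fewest reads, 46 of 242 genes (19.0%) were higher on pine and 33 (13.6%) lower. In the quartile with the most reads, 108 of 242 (44.6%) were higher and 18 (7.44%) lower. With quartiles formed from aspen, straw and cellulose alone, which involve neither column of the comparison, the lowest and highest medians were 0.08 and 0.91. Quantile normalization moved all medians down, to -0.30 in the quartile with the fewest reads and 0.02 in that with the most, and centring to -0.58 and 0.19.

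**Figure D2:**
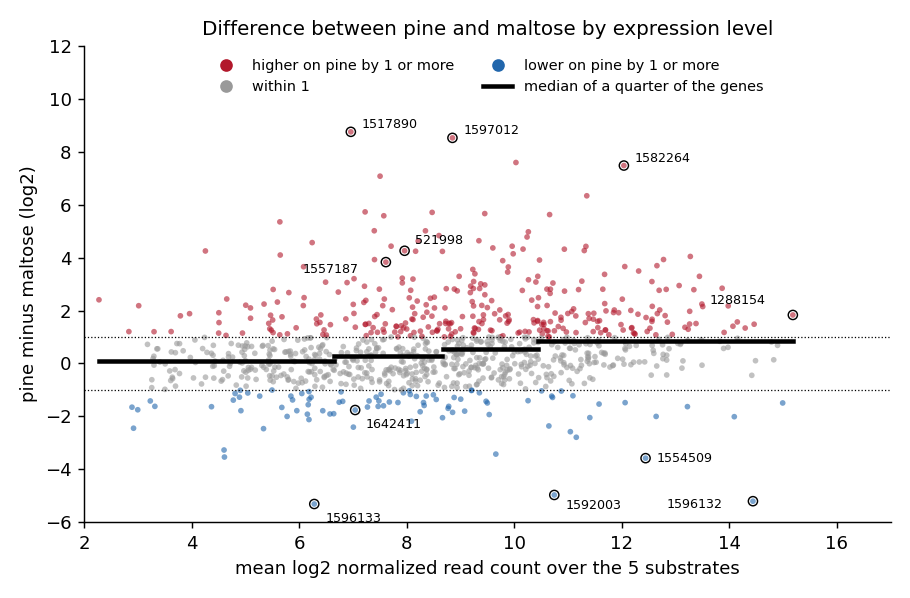
Pine minus maltose difference (y axis, log2) against the mean log2 normalized read count over the 5 substrates (x axis), 1 point per gene, with red for genes higher on pine by at least 1, blue for lower ones and circles for the genes named in the text. Black bars are the medians of the 4 level quartiles, which step up from 0.09 to 0.86.

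In steps of 10-fold, 240 genes (24.8%) stood in a higher class of normalized counts on pine than on maltose, 81 (8.38%) in a lower one and 646 (66.8%) in the same one. The top class was fuller: 64 genes had 10000 or more normalized counts on pine, against 24 on maltose. Of the 24 genes in that class on maltose, 19 were in it on pine as well. At the bottom, 11 genes were under 10 normalized counts on pine and 23 on maltose. As deposited, no gene stood more than 1 class lower on pine than on maltose. By contrast, 22 genes (2.28%) stood at least 2 classes higher on pine. The class limits were the same for both columns, while the median value was 8.89 on pine and 8.22 on maltose (log2). The numbers of genes per class and of genes changing class were not recomputed with the columns rescaled. Their balance is thus given for the deposited scale only.

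Genes near the floor on maltose made up a small part of the higher group. Of all genes, 23 were under 10 normalized counts on maltose, while 311 were higher on pine. Of these 23 genes, 6 were at 100 or more on pine. No gene showed the reverse, 100 or more on maltose and under 10 on pine. With the columns rescaled, genes 1596133 and 1595235 showed the reverse in 3 of 3 scalings and gene 1444239 in 2. Genes 1595235 and 1444239 were named after their values were seen. As deposited, gene 1595235 had 3.46 on pine and 6.99 on maltose, and gene 1444239 had 3.62 on pine and 6.89 on maltose. The 6 genes lay between 7.17 and 11.05 on pine (median 7.80) and between 0.37 and 3.22 on maltose (median 2.44), on the log2 scale. On aspen they lay between 7.11 and 10.47 (median 8.12) and on wheat straw between 7.17 and 12.58 (median 9.92). On cellulose they ran from 3.19, within their range on maltose, to 10.02 (median 9.46).

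The largest difference belonged to gene 1517890. Its log2 value was 9.47 on pine, against 0.72 on maltose, which placed it 409th of 967 genes by reads on pine and 965th on maltose. The difference of 8.75 came to 6.22 with 8 counts added to both linear values, because its maltose value stood near the floor. It had 8.01 on aspen, 10.18 on straw and 6.43 on cellulose, so it was lowest by far on maltose and highest on straw.

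Gene 1597012 came next on the deposited values, at 11.05 on pine and 2.52 on maltose. The difference was 8.53, or 7.27 with 8 added. Pine and straw (10.97) were almost level for this gene, followed by aspen (10.47) and cellulose (9.24). It was thus high on every solid substrate and near the floor on maltose.

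Gene 1582264 led when 8 was added to the linear values, with a difference of 7.34 (7.48 as deposited). It had 13.79 on pine and 6.31 on maltose. Unlike the previous pair, it was well above the floor on maltose, and its 179-fold difference does not rest on a value near 0. It was 43rd by reads on pine and 724th on maltose, and reached 14.48 on straw, 12.92 on cellulose and 12.69 on aspen.

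Genes 521998 and 1557187 were the ones that stood highest on pine above every other substrate. Gene 521998 had 10.59 on pine, against 6.34 on maltose, a 19.1-fold difference. Its nearest other value was 8.24 on straw, 5.11-fold under pine, with 8.10 on aspen and 6.53 on cellulose. Gene 1557187 followed the same order of substrates, with 10.02 on pine, 7.71 on aspen, 7.77 on straw, 6.37 on cellulose and 6.19 on maltose. It was 14.2-fold higher on pine than on maltose and 4.77-fold higher than on straw. In both genes straw and aspen were nearly level, and cellulose was close to maltose. Over all 967 genes, pine held the highest of the 5 values for 326 genes, 47 of them by at least 1, and the lowest for 92 genes, 4 of them by at least 1. Pine also had the highest median value of the 5 columns, at 8.89. The medians were 8.74 on aspen, 8.61 on straw, 8.52 on cellulose and 8.22 on maltose. These counts were not recomputed with the columns rescaled.

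On the lower side, 3 genes differed by more than 16-fold, and their maltose values ranked 1st, 28th and 417th of 967. Gene 1596132 had the most reads of the 967 genes on maltose, at 17.16, and stood at 11.96 on pine, 36.9-fold lower and 134th by reads. Gene 1596133 had 3.43 on pine and 8.74 on maltose, a difference of -5.31, or -4.54 with 8 added. Gene 1592003 was 31.3-fold lower, at 8.19 on pine and 13.16 on maltose. These 3 genes had a like order of substrates. Each was high on cellulose (17.31, 9.98 and 12.77), intermediate on aspen (14.22, 6.04 and 11.18) and low on straw (11.55, 3.21 and 8.42), so their values on pine were close to those on straw and far from those on cellulose.

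The 4 genes that stood lowest on pine by at least 1 had smaller differences from maltose. Gene 1642411 had 5.47 on pine and 7.23 on maltose, 3.38-fold lower, with 6.78 on aspen, 7.96 on straw and 7.77 on cellulose. Gene 1554509 had 10.51 on pine and 14.09 on maltose, 11.9-fold lower, with 11.56 on aspen, 12.29 on straw and 13.77 on cellulose. The other two, genes 1582658 and 589661, were named after their values were seen. They were 2.79-fold and 2.05-fold lower on pine than on maltose.

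**Figure D3:**
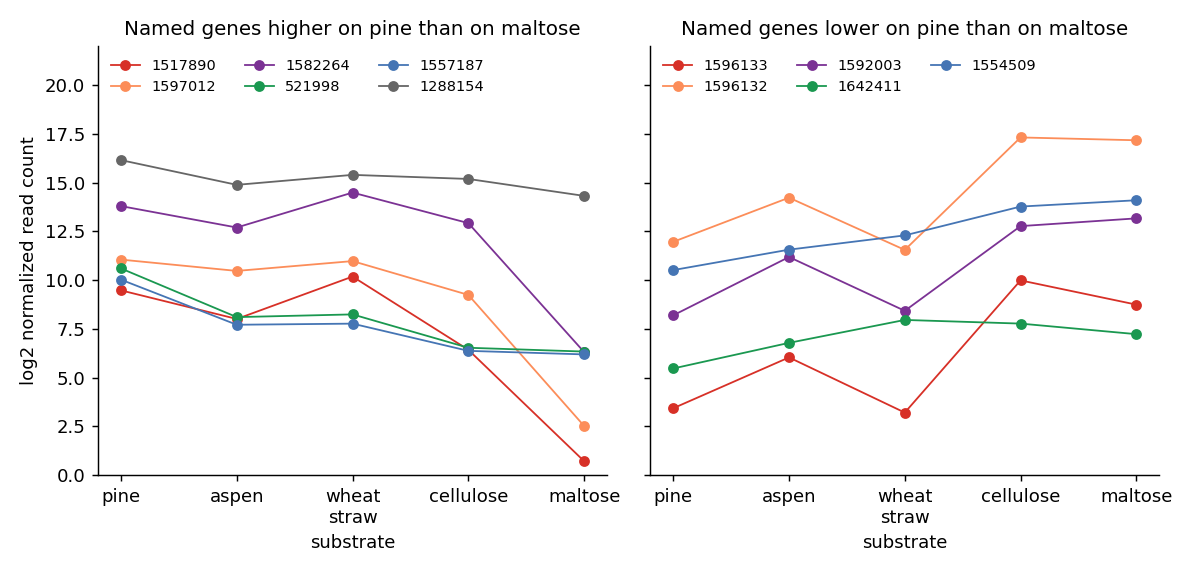
Log2 normalized read counts (y axis) on pine, aspen, wheat straw, cellulose and maltose (x axis) of the genes named by rule that were higher on pine (left panel, 6 genes) or lower on pine (right panel, 5 genes) than on maltose, each point being 1 deposited value and the lines only joining the points of a gene. Genes 1517890, 1597012 and 1582264 have their lowest value on maltose, genes 521998 and 1557187 peak on pine, and genes 1596132, 1596133 and 1592003 are low on pine and straw.

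The genes with the most reads changed between the substrates. Of the 50 genes with the most reads on pine, 27 (54.0%) were also among the 50 on maltose, and of the first 10 genes 3 were shared (1288154, 1586977 and 1662115, the last pair named after their values were seen). The 23 genes in the pine list alone had a median rank of 89 on maltose, and the farthest was ranked 724th there. Each of them was at least 1.21 higher on pine (log2), with a median difference of 2.79. Choosing genes from the pine list alone favours higher pine values, so these sizes only describe the list. The 23 genes in the maltose list alone had a median rank of 78 on pine. Of these, 13 had a pine value below their maltose value, and their median difference was -0.10. The other 10 were outside the list on pine although their own value was no lower there on the deposited scale. Among the first 100 genes, 72 were shared, and of the 28 in the maltose list alone 22 had a pine value below their maltose value, with a median difference of -0.90. The near-zero median thus held for the list of 50 and not for that of 100. The alternatives keep the order of these genes within a column, so they cannot change the number shared.

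Gene 1288154 had the most reads on pine, at 16.15, and was 9th on maltose, at 14.31. It was 3.56-fold higher on pine, and its values were 14.88 on aspen, 15.39 on straw and 15.18 on cellulose. It made up 2.86% of the linear values summed over all 967 genes on pine and 1.35% on maltose. Gene 1596132, by contrast, held 0.157% of the sum on pine and 9.76% on maltose.

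The reads of these genes were less dominated by single genes on pine. The first 10 genes held 18.6% of the sum on pine and 28.4% on maltose, and 50% of the sum was reached with 46 genes on pine and 40 on maltose. The first 50 genes together held similar parts, 52.4% on pine and 54.2% on maltose. The summed linear values were 1.68 times as large on pine as on maltose. Gains on pine were spread widely, with 10 genes making up 25.7% of all gains, whereas 10 genes made up 76.7% of all losses and gene 1596132 alone 39.7%. On these deposited values 623 genes gained and 344 lost, and the parts of gains and losses were not recomputed with the columns rescaled. Over all genes, levels on pine and maltose had a Spearman's rho of 0.85 and a Pearson's r of 0.84 across 967 genes, which share the same libraries and are not independent replicates.

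The median of the genes higher on pine lay between its pine and maltose levels on each of the other substrates. The 311 genes had median log2 values of 10.45 on pine, 9.35 on aspen, 10.20 on straw, 9.00 on cellulose and 7.96 on maltose. Their median differences from maltose were 1.83 on pine, 1.05 on aspen, 1.35 on straw and 0.39 on cellulose, where all 967 genes had 0.43, 0.10, 0.09 and 0.03. For the 91 genes lower on pine, the median values were 7.30 on pine, 8.01 on aspen, 6.82 on straw, 8.07 on cellulose and 8.63 on maltose. Their median differences from maltose were -1.49 on pine, -0.88 on aspen, -1.78 on straw and -0.40 on cellulose. These differences all use the same maltose column, so they are set side by side and not counted as separate evidence. Choosing genes by their pine and maltose values also favours medians between these levels on the other substrates. It favours low maltose values in the higher group and high ones in the lower group, which moves differences from maltose in the group's own direction. Their sizes thus only describe the groups. Among the 134 genes at least 4-fold higher on pine, the medians of these differences were 2.92 on pine, 1.87 on aspen, 2.94 on straw and 0.55 on cellulose.

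**Figure D4:**
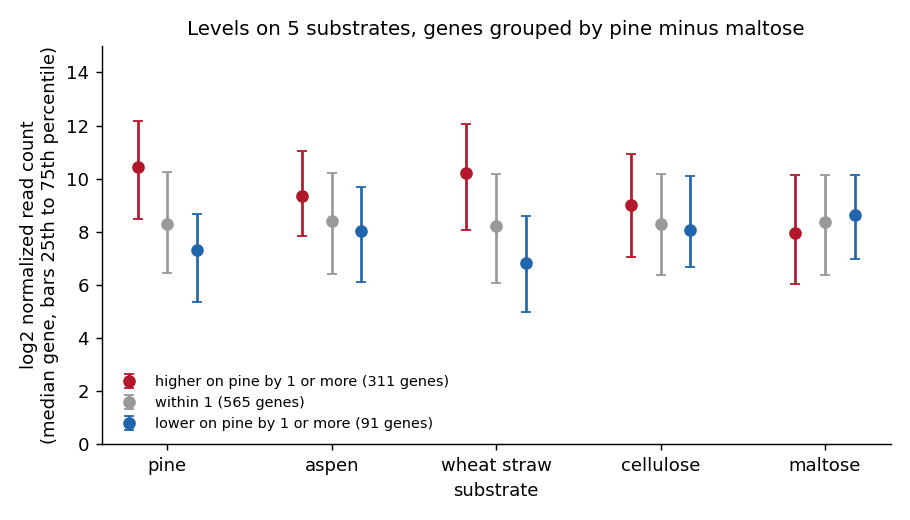
Median log2 normalized read count (points) with the 25th to 75th percentile of genes (bars) on 5 substrates, for the 311 genes higher on pine than on maltose (red), the 565 within 2-fold (grey) and the 91 lower ones (blue). The red and blue medians lie widest apart on straw (10.20 and 6.82) and pine (10.45 and 7.30); the pine and maltose points are fixed by the grouping.

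Straw and cellulose gave a comparison that used neither the pine nor the maltose column, in media with the same stated maltose level of 2.5 g per litre. The genes higher on pine than on maltose lay above their cellulose value on straw in 239 of 311 cases (76.8%), against 497 of all 967 genes (51.4%). Their median straw minus cellulose difference was 0.87, while that of all genes was 0.04. By at least 1, 149 of the 311 genes (47.9%) were higher on straw and 19 (6.11%) lower, against 20.4% and 18.6% of all genes. Of the 91 genes lower on pine than on maltose, 0 were higher on straw than on cellulose by at least 1 and 59 (64.8%) were lower, with a median difference of -1.18. The 565 genes within 2-fold had a median of -0.11, with 48 (8.50%) higher on straw and 102 (18.1%) lower.

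The medians of aspen minus cellulose showed the same direction with smaller sizes. The 311 genes higher on pine had a median aspen minus cellulose difference of 0.36, where all genes had -0.01. By at least 1, 93 of them (29.9%) were higher on aspen and 27 (8.68%) lower, against 14.7% and 8.79% of all genes. The share of lower genes was thus close to that of the whole table. Among the 134 genes at least 4-fold higher on pine it was larger than in the whole table, with 17 (12.7%) lower on aspen and 53 (39.6%) higher. Of the 91 genes lower on pine, 7 (7.69%) were higher on aspen than on cellulose and 23 (25.3%) lower, with a median of -0.49. The stated maltose level of the aspen medium is not legible, and the aspen and straw differences share the cellulose column. Aspen fragments also had a smaller stated size (1 mm) than straw fragments (2 mm).

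The size of the difference from maltose was graded in the same columns. Among the 64 genes at least 3 higher on pine (log2), the median straw minus cellulose difference was 2.15, and 59 genes (92.2%) were above 0. Among the 70 genes between 2 and 3 it was 1.15, and among the 177 genes between 1 and 2 it was 0.46. Between 0 and 1 the medians were near 0, at 0.10 and 0.07 in steps of 0.5. Among the 20 genes lower on pine by at least 2, the median was -2.77, and 0 genes were above 0. The aspen minus cellulose medians of the genes in the highest and lowest steps were 1.13 and -1.03. On aspen, 43 of the 64 genes in the highest step (67.2%) were above 0, with a 25th percentile of -0.37. In the step between 2 and 3 it was 50 of 70 genes (71.4%), and in the lowest step 2 of 20. Across all 967 genes, the pine minus maltose differences had r = 0.64 (rho = 0.60) with the straw minus cellulose differences and r = 0.32 (rho = 0.30) with the aspen minus cellulose differences, given as a description over genes of the same libraries.

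**Figure D5:**
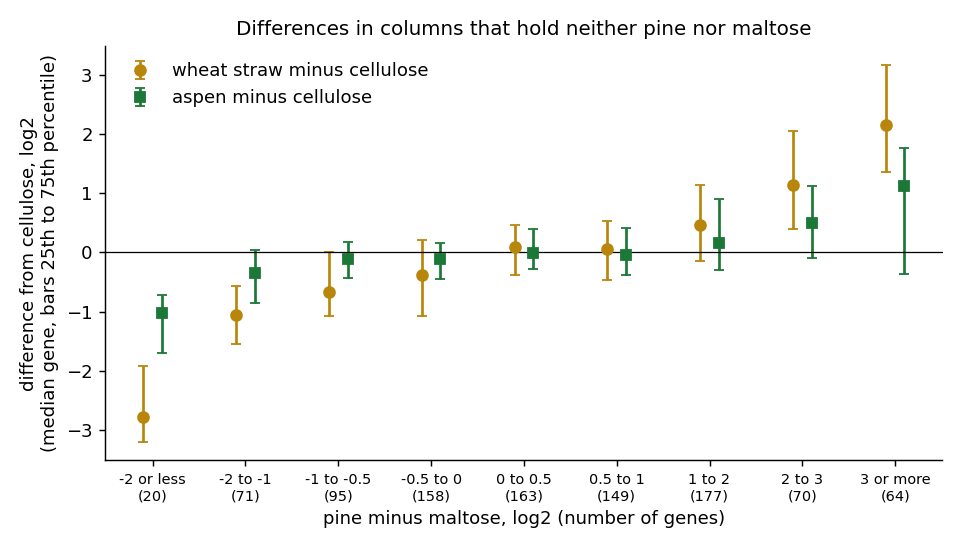
Median difference from cellulose (points, log2) with the 25th to 75th percentile of genes (bars) on wheat straw (circles) and aspen (squares), for genes in 9 steps of the pine minus maltose difference (x axis, number of genes in brackets). The straw medians run from -2.77 in the lowest step to 2.15 in the highest, and the aspen medians from -1.03 to 1.13.

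The straw pattern was present at each read level. In the quartile with the fewest reads, the genes higher on pine had a median straw minus cellulose difference of 0.44, where all genes of that quartile had -0.45. In the next quartiles these medians were 0.75 and 0.03, then 1.07 and 0.20. In the quartile with the most reads these medians were 0.98 and 0.27. For the genes lower on pine, the quartile medians lay between -1.39 and -1.11. On aspen the groups differed in how they varied with the read level. The genes higher on pine had a median aspen minus cellulose difference of 0.63 in the quartile with the fewest reads and 0.07 in that with the most, where all genes had 0.05 and -0.12. The aspen minus cellulose medians of the genes lower on pine were -0.53, -0.21, -0.43 and -0.92 from the quartile with the fewest reads to that with the most.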

How the data were processed

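Per the file headers, the deposited values are normalized read counts on the log2 scale, with 1 column for each of the 5 substrates. The submitters' processing notes list TopHat2, HTSeq and DESeq 1.5 without role or order. Genome build, strand setting, size factors, shrinkage and the way libraries were combined are not stated. Of 1000 rows, 23 exact repeats were dropped. How the genes were selected is not stated. The lowest value was 0.30 and none was 0. The second highest value per gene was at most 3.30 in the 10 genes left out and at least 3.35 in those kept. The 10 had 1.56 to 4.28 on pine and 1.17 to 3.59 on maltose, with differences from -1.99 to 2.03.

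Limma had been planned for values per library; with 1 value per substrate only sizes were counted, with numpy 2.4.6 and pandas 2.3.3, by functions tested on simulated data. The rule for named genes took 2 genes per direction on each of 3 rankings (the deposited difference, the difference with 8 added, and pine against its nearest other substrate) and the gene with the most reads on pine and on maltose, which gave 11 genes. The gene groups and lists were chosen with earlier results of these data known.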

Additional observations from a re-analysis of the deposited data

How the results depend on the processing

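No paired analysis was possible because each substrate had 1 value per gene; for the same reason no library could be left out. The 7 alternatives were no filter, a minimum of 5 (log2), 8 or 32 added to the linear values, quantile normalization, centring, and subtraction of the median difference. All 77 recomputed differences of the 11 named genes kept their direction and a size of at least 1. This was largely fixed by the choice of genes, since the smallest deposited difference among them was -1.76 (gene 1642411). The no filter and minimum of 5 settings also leave the values of a kept gene unchanged. Quantile normalization gave 174 genes higher on pine and 202 lower (83 and 55 at 4-fold), centring 176 and 229 (89 and 63), and subtraction 220 and 166 (99 and 43). With 32 added, 11 genes were 4-fold lower. The median difference was 0.32 with 32 added, and by construction 0.00 after subtraction; it turned to -0.17 with quantile normalization and -0.24 with centring. In the same order (quantile, centring, subtraction), the straw minus cellulose median of the genes higher on pine was 1.16, 1.25 and 1.19, and that of the lower genes -0.82, -1.03 and -0.98. The aspen minus cellulose median of the genes higher on pine was, in this order, 0.58, 0.29 and 0.47, and that of the lower genes -0.45, -0.47 and -0.27. Over all genes, the straw minus cellulose medians were -0.09, -0.06 and 0.04, and the aspen minus cellulose medians -0.09, -0.24 and -0.01. Genes at 100 or more counts on maltose and under 10 on pine numbered 3, 2 and 3 (1444239, 1595235 and 1596133, without 1444239 after centring). The gap between the medians of the quartiles with the most and the fewest reads, chosen after the data were seen, was 0.77, and 0.32 with quantile normalization. Unknown depth and the absence of library values limit all of these sizes.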
